A study of Mus musculus with 45 samples.

Results

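Neuroepithelial organoids treated with all-trans retinoic acid (RA) were compared with untreated organoids of the same age, 42 h after the medium was changed on day 2 of differentiation. The comparison took every library the labels give for this time point, 3 with RA and 3 without, 6 of the 45 libraries of the series, and covered all genes. The organoids were grown from R1 mouse embryonic stem cells, wild type by their labels, embedded in Matrigel, a basement membrane gel, where each organoid grows from a single cell in N2B27, a serum-free medium that lets such cells become neural. On day 2 the medium was replaced by N2B27 alone or with RA at 250 nM, as the design text and the methods of the study state it, while the treatment protocol in the labels gives the same figure in µM. The study asked how the shape and topology of these tissues arise with and without RA, and the 42 h libraries show which transcripts stood apart between treated and untreated organoids. Each library is a bulk RNA sample, so fewer cells of a kind and less RNA per cell cannot be told apart in any value below.

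RA is a small lipid made from vitamin A by retinal dehydrogenases and broken down by enzymes of the Cyp26 family. In the nucleus it binds the RA receptors (Rara, Rarb and Rarg), which sit on DNA with retinoid X receptors at pairs of short half-sites and switch from repressing to activating their target genes. In the embryo RA gives posterior identity to the neural tube: it turns on Hox genes of the hindbrain and the anterior spinal cord, holds back genes of the forebrain and midbrain, opposes FGF signals at the posterior end, and drives cells out of the pluripotent state. Some of its first targets, among them Rarb, Cyp26a1, Dhrs3 and Stra8, are used as readouts of RA signalling.

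The promoters of 2 of these targets hold the textbook binding sequence just ahead of the start of transcription, and they are printed because both genes were among those higher in RA at 42 h. The sequences are from RefSeq on GRCm38.p6, in the direction of the gene, with the paired half-sites in capitals. The Rarb sequence is chr14:16575477-16575579, minus strand, with a direct repeat whose bases lie 53 to 37 before the start. The Cyp26a1 sequence is chr19:37697726-37697807, plus strand, with the repeat 32 to 16 bases before the start and read from the opposite strand, so that its half-sites appear as TGAACT.
Rarb: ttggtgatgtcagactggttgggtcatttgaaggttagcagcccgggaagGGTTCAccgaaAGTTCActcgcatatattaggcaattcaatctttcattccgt
Cyp26a1: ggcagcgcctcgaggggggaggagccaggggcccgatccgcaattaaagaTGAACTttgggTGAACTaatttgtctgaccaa

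Both repeats are spaced by 5 bases. The search covered 300-base promoters, 250 before and 50 after the start, on both strands, for a half-site repeated with 5, 2 or 1 bases between its copies, each copy being AGTTCA or GGTTCA or AGGTCA or GGGTCA. Of the 1237 genes higher in RA, 848 had a promoter in the table, and 2 of these (0.236%) held a repeat spaced by 5, namely Rarb and Cyp26a1. None of the 558 promoters of genes lower in RA held one, against 6 of 11713 promoters of all tested genes (0.0512%) and 31 of 27025 in the whole table (0.115%). With any of the 3 spacings the shares were 0.708% of the genes higher in RA, 0.179% of the genes lower in RA, 0.452% of all tested genes and 0.688% of the table. A match is a description of letters in a short window, and these letters were not in the windows of most genes that differ. The other matches among genes higher in RA were repeats spaced by 2 before Slc25a21, a mitochondrial carrier, and Tinagl1, and repeats spaced by 1 at Akt1 and Rhox1. These 4 genes were chosen after their values were seen. The pair spaced by 2 is printed to show the other spacing, with Slc25a21 on chr12:57197533-57197646 and read from the opposite strand, and Tinagl1 on chr4:130175166-130175279, both genes on the minus strand.
Slc25a21: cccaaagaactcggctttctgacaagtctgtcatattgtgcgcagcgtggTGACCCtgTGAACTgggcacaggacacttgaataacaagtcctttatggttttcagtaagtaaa
Tinagl1: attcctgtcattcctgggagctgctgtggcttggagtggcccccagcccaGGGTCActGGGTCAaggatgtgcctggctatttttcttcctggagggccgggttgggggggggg

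The 6 libraries held 20703819 to 27479990 counts in genes, and 3 counts in the smallest amount to 0.145 CPM, counts scaled to a library total of 1e6. Levels below are CPM normalized by TMM, a scaling that compares libraries over the bulk of their genes, and differences are log2 fold changes of RA minus untreated with their standard error (SE) from edgeR. Within a group every pair of libraries correlated at 0.995 or more over genes, and across groups at 0.972 at most. The libraries of a group are biological replicates by their labels. RA replicate 1 lay at the far end of the RA response more often than the others of its group. That library was the lowest of the 3 RA libraries for 54.0% of genes called lower in RA, and the highest for 52.5% of genes called higher, where over all tested genes it was the lowest for 30.7% and the highest for 39.7%. Among the untreated libraries, replicate 2 was the closest to RA: it was the highest of its group for 48.4% of genes called higher in RA and the lowest for 47.4% of those called lower, against 33.6% and 30.0% of all tested genes.

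Of 16508 genes tested, 1237 were higher and 819 lower in RA, where a call asked edgeR's quasi-likelihood test for an adjusted p (Benjamini-Hochberg) below 0.01 and a change of more than 1 on the log2 scale. These 2056 genes are 12.5% of all tested, 7.49% called up and 4.96% called down, and these shares are the background for every count of list members given here. The lists were chosen with earlier results of these data known, so their counts are descriptions only. In each of the 2056 the 3 RA libraries and the 3 untreated libraries did not overlap, as was the case for 58.8% of all tested genes. The rises reached further than the falls: 490 genes rose by more than 2 on the log2 scale and 261 fell by more than 2, and beyond 4 there were 85 and 41. The median over all tested genes was 0.01. Protein-coding genes made up 1101 of the rises and 703 of the falls.

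**Figure D1:**
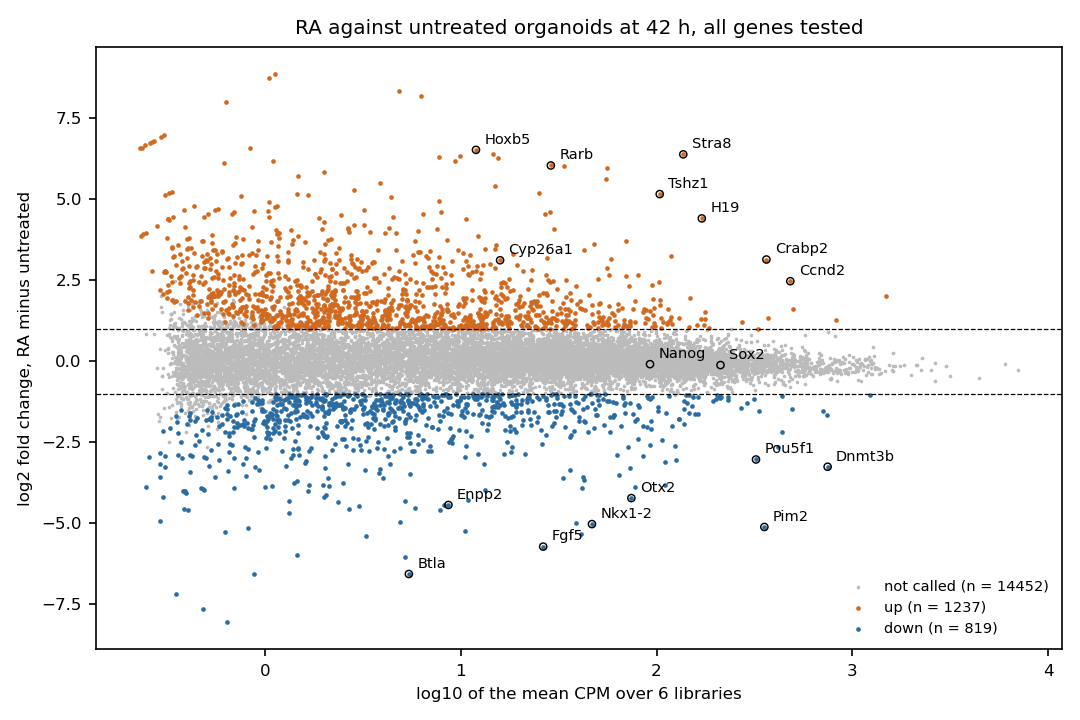
Log2 fold change of RA minus untreated at 42 h (vertical axis) against the log10 of the mean CPM over the 6 libraries, 1 point per gene tested; orange points were called up (1237), blue points called down (819) and grey points not called, and dashed lines mark a log2 fold change of 1 and of -1. Stra8, Crabp2 and Ccnd2 stand out among abundant genes that rose, Pim2, Dnmt3b and Pou5f1 among those that fell, and Sox2 and Nanog lie near 0.

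Direct targets of RA rose. Stra8, a gene named for its response to RA and needed for meiosis, stood at 3.46, 3.31 and 2.92 CPM in the untreated libraries and at 277, 269 and 266 CPM with RA. The groups lie far apart, with little spread inside each, and the log2 fold change was 6.38 ± 0.07 (SE, n = 3 and 3, adjusted p = 4.4e-12 by edgeR's quasi-likelihood test). It lies on chromosome 6 from 34920163 to 34939344 (GRCm38, plus strand). Rarb, the receptor whose own gene is an RA target, was at 0.864, 1.03 and 0.685 CPM without RA and at 59.5, 58.0 and 53.2 CPM with it. Its 2 groups were separated by a log2 fold change of 6.04 ± 0.11 (adjusted p = 3.6e-10 by edgeR's quasi-likelihood test). Cyp26a1, the main RA-degrading enzyme, was at 3.38, 3.50 and 2.96 CPM untreated and at 27.5, 29.6 and 28.5 CPM with RA, a log2 fold change of 3.11 ± 0.10. Crabp2, which carries RA into the nucleus, was at 68.9, 85.7 and 67.0 CPM untreated and 705, 636 and 619 CPM with RA, a log2 fold change of 3.13 ± 0.09. All 6 libraries of these genes fall on the side their group does, and the lowest RA library lay several times above the highest untreated one.

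Of the 10 tested genes of RA synthesis and transport, 6 rose and none fell, with a median log2 fold change of 1.36. Dhrs3, which turns retinal back into retinol and so limits RA synthesis, rose from 2.31 ± 0.218 to 27.9 ± 2.33 CPM (SD, n = 3 each). Stra6, the cell surface receptor for vitamin A carried in blood, rose by 2.33 ± 0.12 (SE, log2). The dehydrogenases Aldh1a2 and Aldh1a1 rose from low levels, Aldh1a2 from 0.953 to 2.76 CPM and Aldh1a1 from 0.187 to 2.61 CPM. Rdh10, which makes retinal, stood at 20.5 and 15.6 CPM, and Crabp1 at 210 and 260 CPM, and neither was called. Among the 12 receptors and cofactors 2 rose and 2 fell. Nrip1, a corepressor that binds RA-loaded receptors, rose from 19.9, 24.9 and 20.6 CPM to 143, 134 and 140 CPM, by 2.66 ± 0.08. Rarg fell by 1.35 ± 0.09 from 115 to 45.4 CPM, and Rxrg, a retinoid X receptor, fell by 4.28 ± 0.13 from 20.7 to 1.07 CPM. Rara and Rxra had log2 fold changes of 0.42 and 0.81 and were not called. Of 3 Cyp26 genes, Cyp26a1 alone was called, and Cyp26b1 stood at 2.32 CPM untreated and 3.83 CPM with RA.

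Of 8 genes on a list of zinc finger and other RA targets 6 rose and none fell, with a median of 2.57. Tshz1, a zinc finger regulator of trunk identity, was at 5.38, 6.35 and 5.16 CPM untreated and at 226, 196 and 183 CPM with RA, so that the groups are far apart, and the log2 fold change was 5.15 ± 0.10. Zfp703 rose by 3.70 ± 0.09 and Zfp503 by 2.49 ± 0.13. Of 8 orphan nuclear receptors, 2 rose and both encode COUP transcription factors that shape hindbrain and forebrain: Nr2f1 rose from 2.23 to 55.1 CPM and Nr2f2 from 5.38 to 26.6 CPM.

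**Figure D2:**
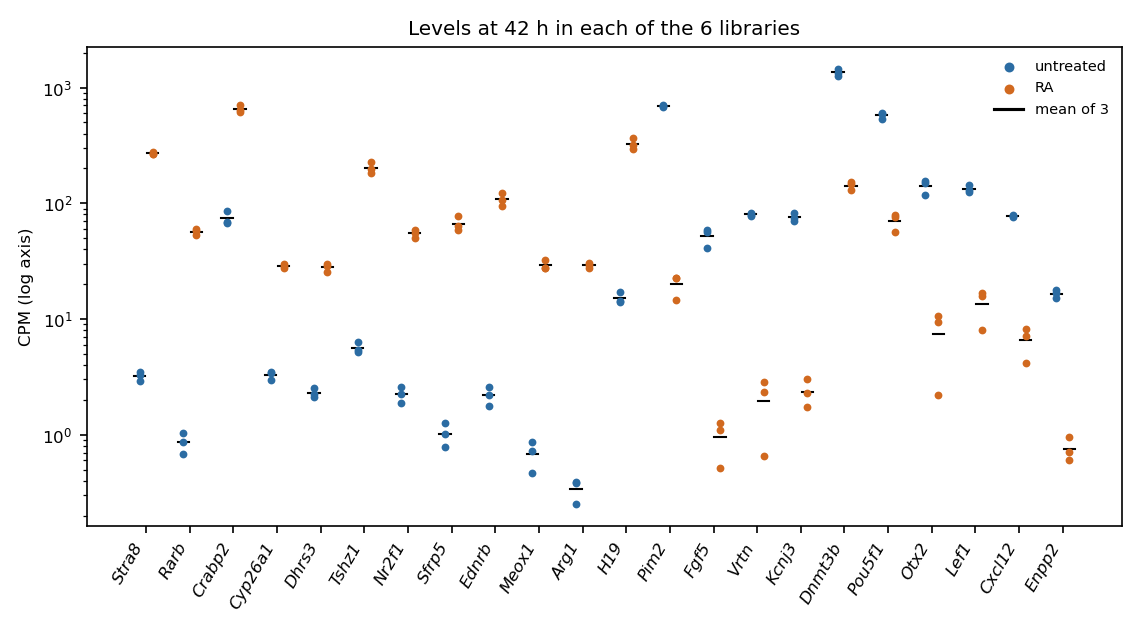
CPM on a log axis for 22 genes described in the text at 42 h, with 1 point per library, untreated in blue and RA in orange, and a bar at the mean of 3. In none of these genes do the groups overlap, and RA replicate 1 is the low point among the RA libraries for Fgf5, Vrtn, Otx2 and Lef1.

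Hox genes, which give cells their position along the body axis and are arranged in 4 clusters in the order of their action, rose as a group. Of 39 Hox genes 26 passed the filter on low counts, 18 of the 26 rose and none fell, with a median log2 fold change of 2.45. The largest rises were in paralogs 3 to 5. Hoxb5 was at 0.157, 0.266 and 0.325 CPM untreated and at 26.9, 24.6 and 19.6 CPM with RA (log2 fold change 6.52 ± 0.21), Hoxc5 rose by 6.32 ± 0.21, and Hoxd3 by 6.29 ± 0.24. These 3 genes were close to absent without RA, and leaving out untreated replicate 3 moved Hoxd3 to 6.96. Hoxb4 rose by 5.19 ± 0.13 to 48.9 CPM, and Hoxb3 by 4.54 ± 0.12. Hoxb8, of the trunk, rose by 4.07 ± 0.08 from 3.33 to 56.3 CPM. Anterior genes such as Hoxb2 and Hoxb1 were already present without RA. Hoxb2 was at 18.97, 28.3 and 21.9 CPM untreated and at 85.5, 76.4 and 73.7 CPM with RA (1.76 ± 0.12). Hoxb1 stood at 32.0 ± 5.45 CPM without RA and 59.1 ± 4.25 CPM with it (SD, n = 3 each), and its log2 fold change of 0.88 missed the fold threshold, although it reached 1.00 without untreated replicate 2. Hoxa9, at 0.882 and 0.381 CPM, and the posterior members Hoxc8, Hoxc9, Hoxc13 and Hoxd13 were not called. Hoxa3, Hoxb2, Hoxb5 and Hoxd3 overlap annotated genes on the opposite strand, and whether the counting used strand is not stated. Rarb, Nr2f1, Nr2f2, Zfp703, Meis1, Gbx2, Otx2, Pax5, Pou5f1, Tbx3, Sox17, Krt8, Lef1, Fst, Crb2, H19, Igf2, Meg3, Snrpn, Ccnd2, Epha1 and Nkx1-2 also overlap an annotated gene on the opposite strand.

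Of 9 cofactors that bind DNA with Hox proteins 4 rose and none fell. Meis1 rose from 9.62, 15.2 and 10.2 CPM to 114, 102 and 100.5 CPM (3.16 ± 0.14), Pbx2 by 1.34 ± 0.06 and Pknox2 by 1.17 ± 0.12. Meis2 stood at 97.0 and 187 CPM and was not called, although its log2 fold change of 0.94 became 1.09 without untreated replicate 2.

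**Figure D3:**
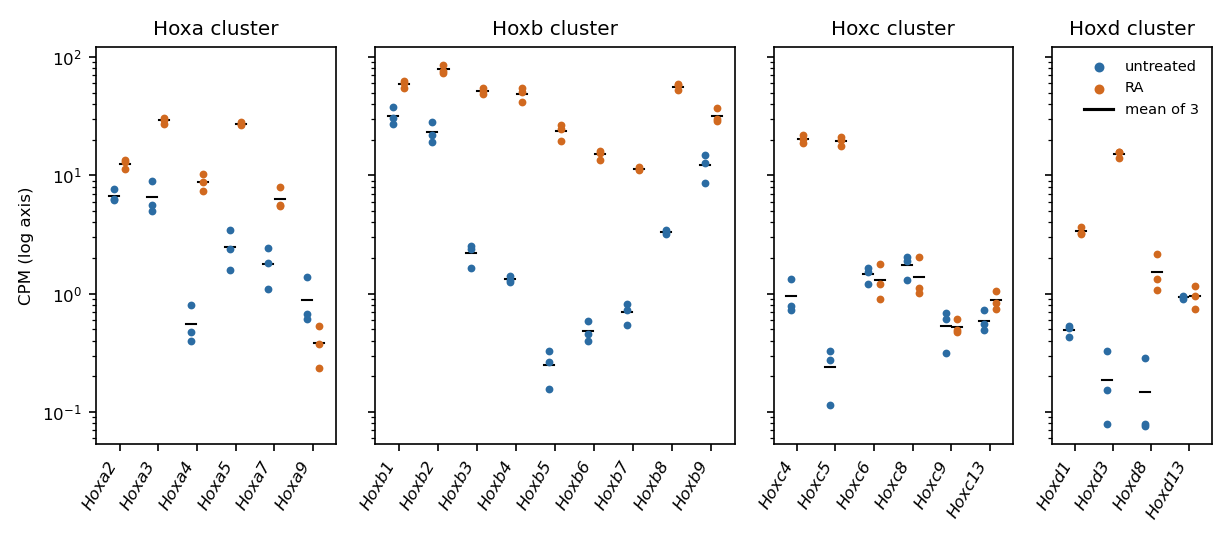
CPM on a log axis at 42 h for 25 of the 26 Hox genes tested, by cluster and in order of paralog number, with 1 point per library, untreated in blue and RA in orange, and a bar at the mean of 3. The groups are furthest apart in the middle of the a and b clusters and in Hoxc4, Hoxc5 and Hoxd3, and they overlap or lie close in Hoxc6 to Hoxc13, Hoxd13 and Hoxa9.

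Genes of hindbrain segments moved in both directions, 6 up and 4 down of 13 tested. Gbx1, a homeobox gene, rose by 2.29 ± 0.19, and Irx3, of neural progenitors, by 1.48 ± 0.09. Phox2a, of hindbrain motor neurons, fell by 1.35 ± 0.22 at low level. Egr2, of segments 3 and 5, was at 3.14, 3.42 and 2.81 CPM untreated and at 0.280, 0.382 and 1.14 CPM with RA, and without RA replicate 3 the log2 fold change was -3.22 in place of -2.35. Gbx2, of the anterior hindbrain, fell from 69.6 to 30.7 CPM, by 1.19 ± 0.12, and Epha4 fell by 1.15 ± 0.11.

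Otx2, the regulator of forebrain and midbrain that is also on in epiblast, was at 156, 117 and 150 CPM untreated and at 2.19, 9.35 and 10.7 CPM with RA. The groups are wide apart, with RA replicate 1 several times below the other RA libraries, and the log2 fold change was -4.23 ± 0.33 (adjusted p = 2.3e-06 by edgeR's quasi-likelihood test). Of 17 tested forebrain and midbrain genes, 7 rose and 3 fell, and 13 others of the list were too low to test. The other falls were in Pax5 and Fgf8, of the boundary between midbrain and hindbrain, from 3.02 to 1.04 CPM and from 2.41 to 0.754 CPM. Pax2 rose by 3.15 ± 0.27 from 0.401 to 3.65 CPM. Wnt1, another gene of that boundary and of the dorsal midline, had 0 counts in every untreated library and 45 to 69 in the RA libraries, which is at least 59.8-fold higher when the untreated group is given 3 counts. The remaining 5 rises, among them Lhx2, Emx2, Vax2 and Dmbx1, ended at 0.856 to 2.69 CPM.

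At the posterior end, 4 of 10 genes of the caudal progenitor zone rose and 5 fell. Nkx1-2, which marks progenitors of the spinal cord, was at 84.8, 101 and 86.8 CPM untreated and at 2.42, 4.05 and 1.85 CPM with RA, a log2 fold change of -5.03 ± 0.18. Cdx2, T and Fgf17 fell with it, from 4.29 to 5.17 CPM in the untreated group to 0.812 to 1.79 CPM with RA, and Fgf4 fell by 2.88 ± 0.17 from 111 CPM. Cdx1 rose by 2.04 ± 0.31, Gdf11 by 1.20 ± 0.09, and Wnt3a from 0.0861 to 3.24 CPM.

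Epiblast genes fell as a group. Of 16 tested, 13 fell and none rose, with a median log2 fold change of -2.32, where the background share of falls was 4.96%. The list was not chosen blind to these data, and it includes Enpp2, which the study names as lowered by RA. Fgf5, the ligand that defines this stage, was at 58.2, 40.9 and 56.4 CPM untreated and at 0.513, 1.11 and 1.26 CPM with RA (-5.72 ± 0.22). Foxd3, a guardian of the epiblast that is also used in neural crest, was at 19.96, 18.2 and 23.2 CPM against 0.699, 0.382 and 0.551 CPM (-5.26 ± 0.19). In both genes the highest RA library was far below the lowest untreated one. Pou3f1 fell by 3.88 ± 0.13 and Wnt8a by 3.12 ± 0.09. Dnmt3b, a DNA methyltransferase of the epiblast, was at 1342, 1260 and 1453 CPM untreated and at 129, 152 and 145 CPM with RA (-3.26 ± 0.08), and it was among the most abundant genes that fell. Its relative Dnmt3a fell by 1.29 ± 0.06 and Tet1, which removes methylation, by 1.11 ± 0.18, and the call of Tet1 was lost without RA replicate 1 (-0.94) or untreated replicate 1 (-0.95). Dnmt1, which copies methylation at division, stood at 442 and 526 CPM and Tet3 at 76.8 and 121 CPM, and neither was called.

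The pluripotency network did not move as 1 block. Pou5f1 (Oct4) was at 600, 530 and 590 CPM untreated and at 56.5, 79.1 and 75.3 CPM with RA, a log2 fold change of -3.04 ± 0.12. L1td1 fell by 2.66 ± 0.15, Utf1 by 2.6 ± 0.16 and Tdgf1, a coreceptor for Nodal, by 2.43 ± 0.32. For Tdgf1 the RA libraries were uneven, at 13.2, 43.2 and 43.7 CPM. Nanog, at 95.4 CPM untreated and 89.8 CPM with RA, Esrrb, at 43.1 and 44.6 CPM, and Zfp42, at 58.1 and 62.9 CPM, had log2 fold changes of -0.095, 0.041 and 0.105 and were not called. Tbx3 rose from 2.94 to 23.2 CPM, by 2.97 ± 0.14. Of the 20 genes 4 fell and 1 rose, with a median of -0.19. Summed over the list, the untreated libraries held 3569 to 3717 CPM and the RA libraries 1719 to 1976 CPM.

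Among genes outside the lists, Pim2, a kinase that promotes growth and survival, was at 687, 680 and 704 CPM untreated and at 14.5, 22.5 and 22.7 CPM with RA. Its fall of 5.12 ± 0.14 was among the 10 largest at a mean of 1 CPM or more, with Btla (-6.57), Grm6 (-6.05), Gmnc, Vrtn (-5.33), Kcnj3 (-5.00) and Foxi3 (-4.96). Gmnc, which is needed for multiciliated cells, had 229 counts untreated and 3 with RA, a ratio of 70.2 with a 95% counting interval of 23.7 to 343. Without RA replicate 3 the log2 fold change of Btla was -7.32 in place of -6.57, and that of Gmnc -6.82 in place of -5.99. Among the 10 largest rises were Arg1, arginase, from 0.342 to 29.0 CPM (6.38 ± 0.14), Col12a1, a collagen, from 0.389 to 30.5 CPM (6.26 ± 0.18), ccdc198, with 3 counts untreated and 916 with RA (ratio 332, 95% counting interval 113 to 1613), and Olfr316, an olfactory receptor gene with 0 counts untreated and 152 with RA (at least 55.1-fold higher against 3 counts over the group). For ccdc198 the fitted log2 fold change of 8.19 became 9.04 without untreated replicate 1. By level per exon length, the most abundant genes called up were Mdk, Crabp2, Peg10, Mest and Stra8. Midkine, encoded by Mdk, is a growth factor known to respond to RA, and it rose from 245 to 745 CPM, by 1.59 ± 0.06. Among the genes called down the most abundant were Ldha, Ddit4, Dnmt3b, Pou5f1 and L1td1.

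Genes of neural progenitors were expressed in both groups. Sox2 stood at 220 CPM untreated and 204 CPM with RA, Sox1 at 85.1 and 167 CPM and Nes, a filament protein of neural progenitors, at 139 and 240 CPM, none of them called, although Sox1 passed the fold threshold without untreated replicate 2 (1.17). Of 20 progenitor genes, 8 rose and 4 fell. Pax6, which marks neural tube progenitors, was at 27.9, 37.9 and 27.3 CPM untreated and at 170, 155 and 148 CPM with RA (2.33 ± 0.11). Cdh2 (N-cadherin) was at 33.2, 62.7 and 46.8 CPM against 180, 163 and 137 CPM, so that the untreated libraries spread widely below the RA libraries, and its log2 fold change was 1.74 ± 0.18. Vim rose by 1.53 ± 0.11, Zic1 by 2.39 ± 0.14, Pou3f2 by 2.67 ± 0.23 and Pou3f3 by 3.23 ± 0.17. Zic2 and Zic5 fell by 1.55 ± 0.06 and 1.72 ± 0.07, and Fabp7 by 1.31 ± 0.18.

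Along the dorsoventral axis, genes of each list moved in both directions. Of 16 dorsal regulators 11 rose and 4 fell, with a median log2 fold change of 2.17, while their summed level was lower with RA, at 179 to 183 CPM against 298 to 306 CPM untreated. Of 12 genes of the floor plate and ventral progenitors 5 rose and 1 fell, with a median of 0.59. Pax3 and Pax7, of the dorsal tube, rose by 2.27 ± 0.24 and 2.69 ± 0.17, Msx1, a BMP target, from 0.746, 1.37 and 1.44 CPM to 13.7, 11.7 and 13 CPM (3.40 ± 0.19), and Lmx1a, of the roof plate, by 3.11 ± 0.32. Olig3 went the other way, from 39.6, 51.9 and 42.6 CPM to 4.29, 8.32 and 10.2 CPM (-2.55 ± 0.22), and Gsx1 had 62 counts untreated and 2 with RA (ratio 28.5, 95% counting interval 7.57 to 241), with a fitted log2 fold change of -4.61, or -7.37 without RA replicate 1. Ventrally, Foxa2, the organiser of the floor plate and also an endoderm gene, rose from 0.354, 0.532 and 0.288 CPM to 10.2, 7.98 and 7.67 CPM (4.43 ± 0.24). Dbx1, of progenitors in the middle of the tube, rose by 6.16 ± 0.20 from 0.252 to 18.5 CPM. Shh, Nkx2-2 and Olig2 were too low to test. Of 12 Hedgehog pathway genes 5 rose and none fell: Ptch1, receptor and target, from 101 to 254 CPM (1.31 ± 0.06), Hhip by 2.19 ± 0.16, and the coreceptors Boc, Gas1 and Cdon by 1.59 to 1.97. Gli1, a target, stood at 15.7 and 30.9 CPM with a log2 fold change of 0.97 and was not called, although it passed 1 without untreated replicate 1 (1.00) or 3 (1.01).

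Neuronal genes were split, with 7 rises and 5 falls among 27. Stmn2, of growing axons, fell from 144 to 35.2 CPM (-2.04 ± 0.13), Neurod1 by 2.78 ± 0.14 and Ebf1 by 4.43 ± 0.26 from 15.8 to 0.757 CPM. The rises were at low level: Lhx1 ended at 4.07 CPM, Chrna3 at 8.56 CPM, Mnx1 at 2.73 CPM and Neurog1 at 1.00 CPM. Tubb3 stood at 59.8 and 45.3 CPM and Dcx at 1.65 and 1.26 CPM. Of the neural crest genes Ednrb, an endothelin receptor, was at 2.20, 2.59 and 1.77 CPM untreated and at 124, 107 and 94.7 CPM with RA (5.62 ± 0.13), while Sox10, the defining gene of migrating crest, stood at 0.604 and 0.752 CPM, and 3 of the 14 rose and 1 fell.

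Markers of other germ layers and of epithelia also differed, and their part in the results above was not tested. Of 11 endoderm markers 7 rose and none fell, their list sum going from 18.7 to 21.6 CPM in the untreated libraries to 79.3 to 83.8 CPM with RA. Sox17 was at 0.118, 0.0761 and 0.288 CPM untreated and at 6.76, 9.05 and 6.84 CPM with RA (5.48 ± 0.32, and 6.20 without untreated replicate 3). Afp, Ttr, Apoa1 and Cer1, of mature or anterior endoderm, were too low to test. Of 11 mesoderm and endothelial markers 5 rose and 2 fell, with list sums of 54.5 to 65.2 and 74.8 to 78.4 CPM. Meox1, of somites and an RA-responsive gene in embryos, rose from 0.864, 0.723 and 0.469 CPM to 32.0, 27.8 and 27.7 CPM (5.40 ± 0.16), while Mesp1, Hand2 and Cdh5 were too low to test and Eomes and Tcf15 fell. Of 15 markers of surface ectoderm and simple epithelia 10 rose and 3 fell. The keratins of simple epithelia rose together, Krt8 from 17.4 to 63.6 CPM (1.86 ± 0.08), Krt18 by 1.49 ± 0.08, Krt19 by 2.12 ± 0.12 and Krt7 by 2.68 ± 0.16. Gata2 rose by 3.87 ± 0.18, Gata3 by 3.04 ± 0.19 and Tfap2c by 1.6 ± 0.08. Grhl2 fell by 2.27, and Epcam and Cdh1, which hold epithelia together, by 1.59 and 1.53. The list of epithelial markers summed to 781 to 931 CPM untreated and 504 to 561 CPM with RA. Trophoblast genes overlap this list and gave 7 rises and 2 falls of 10, the falls being Cdx2 and Eomes. Peg10 was the most abundant, at 2273 to 2445 CPM with RA, where the whole list summed to 2377 to 2540 CPM. Plac1 rose by 4.09 ± 0.25 and Elf5 was too low to test.

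**Figure D4:**
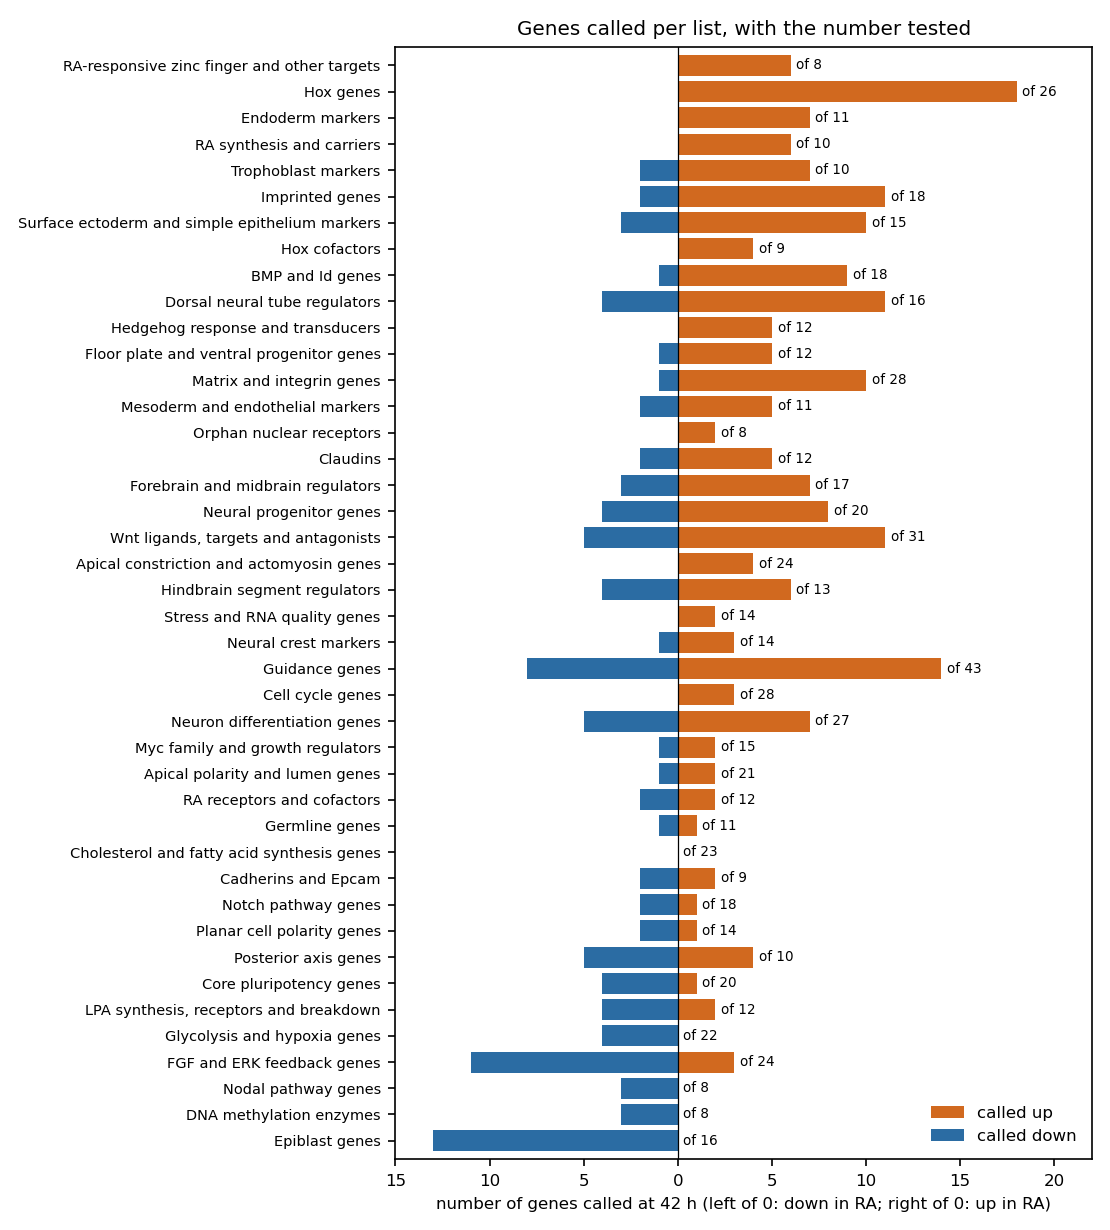
Number of genes called at 42 h in each list, up in RA to the right in orange and down in RA to the left in blue, with the number tested printed at the end of each bar, for lists of 8 or more tested genes; ribosomal, oxidative phosphorylation and proteasome lists, with 0 called, are left out. Hox genes (18 up of 26, 0 down) and epiblast genes (13 down of 16, 0 up) mark the ends, and genes can be in more than 1 list.

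FGF signalling genes fell at the level of ligands and feedback targets and rose at the level of receptors. Of 24, 11 fell and 3 rose. Besides Fgf4, Fgf5, Fgf8, Fgf15 and Fgf17, the inhibitors that ERK signalling induces fell, Spry2 from 131, 144 and 136 CPM to 24.3, 39.4 and 38.4 CPM (-2.01 ± 0.15) and Spry4 by 1.56 ± 0.18, and so did the ETS factors that transmit it, Etv1, Etv4 and Etv5, by 1.79 to 2.03. Il17rd fell by 1.11 ± 0.19, a call lost without RA replicate 1 (-0.87). The rises were in Fgfr2, from 44.5 to 133 CPM (1.56 ± 0.07), Fgfr3 and Fgfr4.

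Wnt genes were mixed, with 11 rises and 5 falls of 31. Sfrp5, a secreted Wnt inhibitor, was at 0.786, 1.25 and 1.01 CPM untreated and at 77.0, 63.9 and 58.4 CPM with RA (6.01 ± 0.15), and Lef1, a nuclear partner of beta-catenin, was at 125, 130 and 142 CPM against 7.97, 16.7 and 15.9 CPM (-3.28 ± 0.19). In both genes the groups are separated without overlap, with RA replicate 1 at the far end. Of 18 BMP genes 9 rose and 1 fell: Id1 and Id3, direct targets of BMP signals, rose from 5.78 to 28.5 CPM (2.29 ± 0.09) and from 14.8 to 86.0 CPM (2.53 ± 0.08), Bmp7 by 1.79 ± 0.08 and Bmp2 by 3.69 ± 0.38, while Fst, which traps activins and BMPs, fell by 3.68 ± 0.15 from 79.4 to 6.16 CPM. Of 8 Nodal pathway genes 3 fell, Nodal itself by 1.19 ± 0.10, and none rose. Of 18 Notch genes Hes6 and Dll3 fell by 1.57 ± 0.06 and 1.75 ± 0.13 and Hes5 rose by 1.02 ± 0.21, just past the threshold, which fell to 0.81 without RA replicate 1, 0.87 without untreated replicate 1 and 0.99 without untreated replicate 2. Notch1, at 59.3 and 91.5 CPM, and Hes1, at 26.3 and 31.9 CPM, were not called.

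Some genes tied to the shape of the epithelium moved, in both directions, while most genes of apical polarity and actomyosin were not called. Enpp2, which encodes autotaxin, the enzyme that makes lysophosphatidic acid (LPA), was at 15.3, 17.6 and 16.8 CPM untreated and at 0.606, 0.955 and 0.708 CPM with RA. The highest RA library lay far below the lowest untreated one, with a log2 fold change of -4.44 ± 0.16 (adjusted p = 1.1e-08 by edgeR's quasi-likelihood test). It lies on chromosome 15 from 54838901 to 54952892 (GRCm38, minus strand) and overlaps an annotated gene on the other strand. Of the LPA receptors, Lpar4 fell by 1.96 ± 0.15 from 86.2 to 22.2 CPM, Lpar3 rose by 2.17 ± 0.26 at low level, and Lpar1 rose by 1.03 ± 0.08, a value of 0.99 without untreated replicate 2. Of 21 apical polarity genes 2 rose and 1 fell, close to the shares over all genes, with a median log2 fold change of 0.008. The fall was in Crb1, a low-level paralogue of Crb2, from 1.88 to 0.874 CPM (-1.11 ± 0.24), a call lost without RA replicate 1, RA replicate 2 or untreated replicate 2, with the replicate block and in 1 edgeR fit of all 45 libraries. Crb2, an apical determinant, rose by 1.76 ± 0.12. Podxl, a glycoprotein of the luminal surface, stood at 199 CPM untreated and 111 CPM with RA, a log2 fold change of -0.85 below the fold threshold, and Tjp1 (ZO1), of tight junctions, at 295 and 311 CPM. Rock1 and Rock2, the kinases that activate myosin, had log2 fold changes of -0.18 and 0.47, and 4 of 24 actomyosin genes rose, none fell. The cadherins changed in opposite directions, Cdh1 (E-cadherin) from 466, 462 and 560.5 CPM to 164, 192 and 163 CPM (-1.53 ± 0.09) with the rise of Cdh2 given above, and Cdh6 rose by 1.91 ± 0.15.

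In the matrix, 10 of 28 genes rose and 1 fell. Lama1, the laminin chain of early basement membranes, was at 10.6, 16.6 and 13.2 CPM untreated and at 116, 104 and 75.2 CPM with RA (2.86 ± 0.17), Itga3 rose by 1.94 ± 0.11, and Col4a1 and Col4a2 by 1.33 ± 0.10 and 1.74 ± 0.16. Of 43 guidance genes 14 rose and 8 fell. The chemokine Cxcl12 fell from 78.9, 76.1 and 78.0 CPM to 4.2, 8.25 and 7.12 CPM (-3.56 ± 0.16), while both of its receptors rose, Cxcr4 by 1.47 ± 0.23 and Ackr3 by 2.99 ± 0.12. Plxna2, a semaphorin coreceptor, rose from 22.4 to 215 CPM (3.25 ± 0.11) and Nrp1 from 0.623 to 15.3 CPM, while the ephrin receptors Epha1 and Epha2 fell by 3.37 ± 0.10 and 2.42 ± 0.14.

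Imprinted genes, expressed from 1 parental copy, gave 11 rises and 2 falls of 18, with a median of 1.20. H19, a noncoding RNA, was at 14.1, 17.2 and 14.4 CPM untreated and at 364, 294 and 317 CPM with RA (4.40 ± 0.10), and its neighbour Igf2, a growth factor, rose by 3.47 ± 0.17 from 2.17 to 24.4 CPM. Peg3 rose by 1.32 ± 0.05 and Mest by 1.26 ± 0.11. Meg3 and Snrpn fell by 1.67 ± 0.05 and 1.99 ± 0.06. Cell cycle genes were mostly not called, 3 of 28: Ccnd2 (cyclin D2) was at 129, 165 and 146 CPM untreated and at 837, 836 and 777 CPM with RA (2.47 ± 0.08), Cdkn1c, an inhibitor of division, rose by 1.85 ± 0.10, and Mki67 stood at 456 and 539 CPM. Mycn fell by 1.37 ± 0.06 and Myc, at 23.0 and 35.0 CPM, was not called.

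Housekeeping lists showed small shifts. None of 81 ribosomal protein genes, 78 oxidative phosphorylation genes, 38 proteasome genes and 23 cholesterol and fatty acid synthesis genes was called, and their medians were -0.29, -0.17, -0.18 and -0.35. Of 22 glycolysis and hypoxia genes 4 fell and none rose, with a median of -0.58: Ldha fell from 1713, 1487 and 1761 CPM to 607, 922 and 902 CPM (-1.04 ± 0.14), a call lost without RA replicate 1 (-0.86) or untreated replicate 3 (-0.99) and with library totals (-0.98), and Pdk1 fell by 1.23 ± 0.16. Pfkp fell by 1.06 ± 0.23, a call lost without RA replicate 1 (-0.81) or untreated replicate 1 (-0.93), and Egln3 by 1.12 ± 0.25, lost without RA replicate 1 (-0.86) or untreated replicate 3 and with DESeq2 (adjusted p = 0.011). RA replicate 1 was the lowest library for each of these 4 genes. Of 14 stress genes Jun and Atf3 rose by 1.10 and 1.03 and none fell, with Atf3 at 0.85 without untreated replicate 2. The genes of the Y chromosome summed to 95.5 to 138 CPM across the 6 libraries, with 0 of 4 called.

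To see what set 42 h apart, the RA effect was compared with that at 18 h and at 54 h, each as an interaction of treatment and time over 12 libraries with the same test and thresholds. Against 18 h, 897 of 17496 genes (5.13%) had a different RA effect, 268 with a more positive and 629 with a more negative effect at 42 h. Against 54 h, 46 of 17303 (0.266%) differed, 7 with a more positive and 39 with a more negative effect at 54 h. Both comparisons use the 42 h libraries, and the count for 54 h varied more between alternatives, from 0 to 37 and from 19 to 110. Of the 12 libraries in the comparison with 54 h, untreated 54 h replicate 3 alone carries a library number from the later of the series' runs of numbers. Without it the counts were 4 and 19, and the part of the library number was not tested.

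Cyp26a1 and Cyp26b1, which break down RA, and Dhrs3, which limits its synthesis, had smaller RA effects at 42 h than at 18 h. Cyp26a1 averaged 276 CPM with RA at 18 h, 28.5 CPM at 42 h and 8.55 CPM at 54 h, while the untreated organoids were at 2.75, 3.28 and 5.25 CPM. The difference in log2 effect was -3.50 from 18 h to 42 h and -2.42 ± 0.17 from 42 h to 54 h (adjusted p = 6.5e-06 by edgeR's quasi-likelihood test). Cyp26b1 went from 17.5 to 3.83 CPM with RA between 18 h and 42 h while the untreated level went from 0.336 to 2.32 CPM (difference -4.89 ± 0.31), and by 54 h the untreated level of 12.4 CPM was above the 2.06 CPM with RA (further difference -3.30 ± 0.39). Dhrs3 differed by -1.70 and then by -2.21. Stra8 and Rarb were at 517 and 44.4 CPM with RA at 18 h and at 271 and 56.9 CPM at 42 h, and neither effect was called different.

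Of the 39 Hox genes 13 had a more negative and 1 a more positive RA effect at 42 h than at 18 h. Over all 17496 genes tested there were 629 and 268 (5.13% in both directions together). The 39 include genes too low to test at 42 h. For Hoxb1 both groups moved towards each other up to 42 h, and by 54 h RA was below untreated. Its RA level was 169 CPM at 18 h, 59.1 CPM at 42 h and 23.1 CPM at 54 h, and its untreated level 4.65, 32.0 and 53.4 CPM. Its RA effect differed by -4.29 ± 0.14 between 18 h and 42 h and by -2.10 ± 0.27 between 42 h and 54 h. Hoxb2 (-3.57) and Zfp703 (-3.32) moved the same way from 18 h to 42 h, but RA was still above untreated at 54 h. Hoxb2 was then at 68.5 CPM with RA and 47.0 CPM untreated, and Zfp703 at 90.3 and 24.0 CPM. The Hox gene with a more positive effect was Hoxc5, whose RA level went from 3.43 CPM at 18 h to 19.6 CPM at 42 h (2.83).

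**Figure D5:**
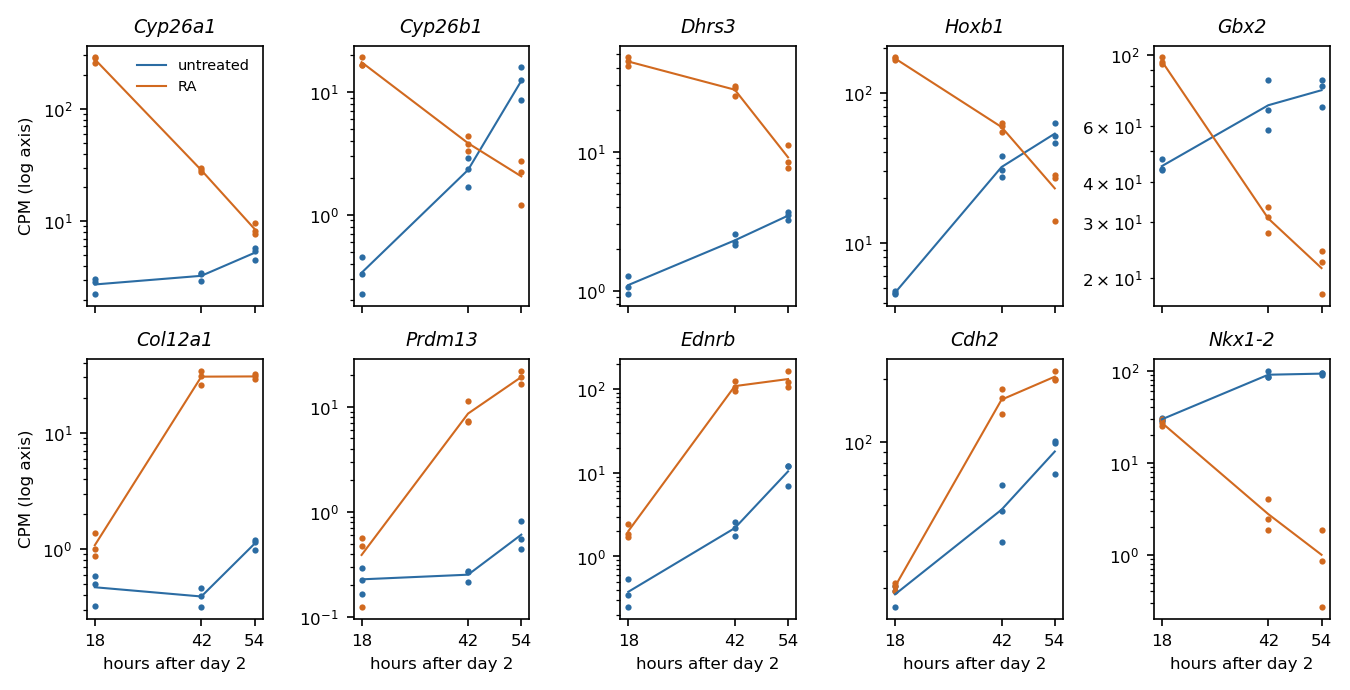
CPM on a log axis at 18, 42 and 54 h after day 2 for 10 genes, with 1 point per library and lines through the means of 3, untreated in blue and RA in orange. In the upper row the RA level falls after 18 h in Cyp26a1, Cyp26b1, Dhrs3, Hoxb1 and Gbx2 and the untreated level climbs, and in the lower row the groups lie further apart at 42 h than at 18 h in Col12a1, Prdm13, Ednrb and Cdh2, with RA higher, and in Nkx1-2, with RA lower.

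Other genes had a more positive RA effect at 42 h than at 18 h. Col12a1 was at 0.467 CPM untreated and 1.08 CPM with RA at 18 h against 0.389 and 30.5 CPM at 42 h, a difference in effect of 4.99 ± 0.43, and was at 30.6 CPM with RA at 54 h. Prdm13, a regulator of dorsal interneurons, followed at 4.37 ± 0.68, and Itga2 at 3.30 ± 0.53. Masp1 differed by 3.77 ± 0.56 and changed side. It was at 0.435 CPM untreated and 0.0565 CPM with RA at 18 h and at 1.30 and 2.55 CPM at 42 h. Wnt3a differed by 3.40 ± 0.79, which was not called without RA 42 h replicate 1 or untreated 18 h replicate 3, or with the replicate block (adjusted p = 0.026 by edgeR's quasi-likelihood test). Ednrb (3.21), Pou3f3 (2.71), Nrp1 (2.69), Foxa2 (2.57), Id3 (2.45), Lama1 (2.31), Vim (1.89), Krt19 (1.66) and Cdh2 (1.62) also had a more positive effect at 42 h, and Aldh1a1 did so at low level (3.91). Cdh2 was at 18.7 CPM untreated and 20.4 CPM with RA at 18 h. Mycn was lower in RA at both times, at 343 CPM untreated and 54.9 CPM with RA at 18 h and 219 and 85.2 CPM at 42 h. Its effect differed by 1.28, a smaller fall at 42 h.

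Nkx1-2, described above as a marker of spinal cord progenitors, parted after 18 h. It was at 29.7 CPM untreated and 27.3 CPM with RA at 18 h, and at 90.8 and 2.77 CPM at 42 h, a difference in effect of -4.90 ± 0.20 (adjusted p = 2.8e-10 by edgeR's quasi-likelihood test). The untreated level climbed while the RA level dropped. Wnt8a (-3.32) took the same course. For Olig3 (-3.81), Pax5 (-4.05) and Gbx2 (-2.28) the effect changed side, with RA above untreated at 18 h and below it at 42 h. Olig3 went from 5.52 to 44.7 CPM in untreated organoids and from 13.2 to 7.6 CPM with RA. Gbx2 was at 44.8 CPM untreated and 95.8 CPM with RA at 18 h and at 69.6 and 30.7 CPM at 42 h. Glra1 (-4.78 ± 0.41) and Dgkb (-4.40 ± 0.36) did so from lower levels. Cxcl12 (-2.77) and Pou5f1 (-1.70) were lower in RA at both times and further apart at 42 h.

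After 42 h the changes of effect were few. Beyond Cyp26b1, Cyp26a1, Dhrs3 and Hoxb1, the largest fall in effect was for Nr2f1 (-2.19 ± 0.31), where RA went from 55.1 to 77.2 CPM and untreated from 2.23 to 14.1 CPM, and this call was lost without untreated 42 h replicate 3 or untreated 54 h replicate 3, and with the replicate block (adjusted p = 0.026). The largest positive differences were for Srrm4, a splicing factor of neurons (1.59 ± 0.21), Spon1 (1.36 ± 0.22) and Dll3, a Notch ligand (1.34 ± 0.17). Phlda2 (1.27 ± 0.15) and Zfp36l3 (1.24 ± 0.21) followed. Srrm4, Spon1 and Dll3 were lower in RA at 42 h, and the groups were closer at 54 h. Srrm4 went from 3.24 to 8.92 CPM with RA and from 9.20 to 8.42 CPM untreated. For Phlda2 the RA level rose further above the untreated level. Zfp36l3 was alike in the groups at 42 h, at 6.39 CPM untreated and 6.59 CPM with RA. At 54 h it was at 5.24 and 12.8 CPM. The call of Spon1 was lost in 8 of the fits that left out 1 library, with values from 1.23 to 1.45, and that of Zfp36l3 in 10, from 1.16 to 1.35. Both were also lost with the replicate block and in 1 edgeR fit of all 45 libraries, and Zfp36l3 with DESeq2 on all 45 libraries (adjusted p = 0.34) and with library totals. Srrm4 was not called with the replicate block (adjusted p = 0.018), with DESeq2 on all 45 libraries (0.049) or in the edgeR fit of all 45 (0.13). In those last 2 fits Phlda2 was not called either (adjusted p = 0.031 and 0.095), and Dll3 was not called in the edgeR fit of all 45 (0.017).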

How the data were processed

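Poly(A) RNA of 45 organoid samples in 15 conditions was sequenced by the authors with a directional kit, and the deposited table holds raw counts per gene, not normalized. The submitters' processing notes name Trim Galore 0.5.0, Bowtie2 2.3.4.1, Subread 1.6.2 with featureCounts and the build GRCm38. By the methods of the study, Bowtie2 served to remove abundant sequences and the aligner was STAR. The strand setting of the counting is not given in the sources used here. Groups came from the labels. The members and gene lists were chosen with earlier results of these data known.

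The counts were tested with edgeR 4.0.16 in R 4.3.3 (TMM normalization, filterByExpr with a minimum count of 10 and a minimum total of 15, quasi-likelihood F test, two-sided, Benjamini-Hochberg adjustment over all tested genes). Calls needed an adjusted p below 0.01 together with a change of more than 1 on the log2 scale. The SE was the absolute log2 fold change divided by the square root of F. The RA effect at 42 h was set against that at 18 h and at 54 h by an interaction term over 12 libraries. CPM levels used TMM factors of all 45 libraries. On simulated counts with 200 genes changed by 2 on the log2 scale, 95.5% were recovered for the 42 h comparison with 0 false calls. For the comparison with 18 h 82.5% were recovered with 0 false calls, and for that with 54 h 80% with 1 false call. Changes nearer to the threshold of 1 were not simulated, and a false call had to pass that threshold too.

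The 6 libraries at 42 h held 20703819 to 27479990 counts. Counting intervals are 95% exact and, like the floor of 3 counts over a group, cover counting error only. Replicates differed beyond counting noise (mean chi-square 3.64 to 12.1 per gene for a pair). The text names the 10 largest rises and falls among called protein-coding genes without overlap and with a mean of at least 1 CPM, members of the lists, 5 genes the study names (Enpp2, Tjp1, Podxl, Rock1 and Rock2), the 5 largest differences in each direction against 18 h and 54 h at that mean, and the 5 called genes with the highest level per exon length in each direction. Some genes that this rule names are not reported here. Alternatives were DESeq2 1.42.0, other normalizations, filters, thresholds and prior counts, 1 fit of all 45 libraries, a replicate block and leaving out each library in turn. Promoter and gene positions are on GRCm38.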

Additional observations from a re-analysis of the deposited data

Results flagged for a closer look

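The results given here had an RA effect at 42 h that differed from the effect at 18 h, or an effect at 54 h that differed from that at 42 h, by the interaction term of edgeR's quasi-likelihood test. Both sets of differences rest in part on the same 42 h libraries.

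Against 18 h, 268 genes had a more positive and 629 a more negative RA effect at 42 h. The log2 difference was 4.99 for Col12a1, 4.37 for Prdm13, 3.91 for Aldh1a1, 3.77 for Masp1, 3.40 for Wnt3a, 3.30 for Itga2, 3.21 for Ednrb, 2.83 for Hoxc5, 2.71 for Pou3f3, 2.69 for Nrp1, 2.57 for Foxa2, 2.45 for Id3, 2.31 for Lama1, 1.89 for Vim, 1.66 for Krt19, 1.62 for Cdh2 and 1.28 for Mycn. It was -4.90 for Nkx1-2, -4.89 for Cyp26b1, -4.78 for Glra1, -4.40 for Dgkb, -4.29 for Hoxb1, -4.05 for Pax5, -3.81 for Olig3, -3.57 for Hoxb2, -3.50 for Cyp26a1, -3.32 for Zfp703 and for Wnt8a, -2.77 for Cxcl12, -2.28 for Gbx2, -1.70 for Dhrs3 and -1.70 for Pou5f1.

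Against 42 h, 7 genes had a more positive and 39 a more negative RA effect at 54 h. The log2 difference was 1.59 for Srrm4, 1.36 for Spon1, 1.34 for Dll3, 1.27 for Phlda2 and 1.24 for Zfp36l3. It was -3.30 for Cyp26b1, -2.42 for Cyp26a1, -2.21 for Dhrs3, -2.19 for Nr2f1 and -2.10 for Hoxb1.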

How the results depend on the processing

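At 42 h the counts of 1237 rises and 819 falls became 573 and 340 when the fold change was tested against the threshold itself (glmTreat), and 4475 and 3908 at an adjusted p under 0.05 with no minimum fold, both by construction of the threshold. Leaving out each library in turn gave 1134 to 1223 rises and 717 to 830 falls, and the differences from 18 h ranged over 226 to 277 and 526 to 624. The counts against 54 h, 7 and 39, were less stable: DESeq2 gave 26 and 69, a fit without the filter gave 37 and 110, 1 edgeR fit of all 45 libraries gave 0 rises, DESeq2 on all 45 gave 59 falls, and leaving out 1 library gave 4 to 10 and 19 to 49. Rises came to 4 without RA 42 h replicate 2 or 3, untreated 42 h replicate 1 or 3, or any untreated 54 h library. Falls came to 25 without RA 42 h replicate 2, 23 without RA 54 h replicate 2, 20 without untreated 42 h replicate 3, 25 without untreated 54 h replicate 2 and 19 without untreated 54 h replicate 3. The cause was not tested. Deviations from the group means did not match by replicate number (correlations -0.34, -0.0092 and -0.33, with 0 of 3 RA libraries closest to their own number). With 3 libraries per group these correlations cannot decide whether the samples were paired. With the replicate block the counts were 1134 and 721 at 42 h, 203 and 467 against 18 h and 3 and 21 against 54 h. Of 284 called genes in the lists or named, 31 lost their call under at least 1 of the alternatives run gene by gene and none changed sign. The minimum of 10 counts in every library removed some of these genes, and glmTreat and the adjusted p of 0.05, run for counts only, moved 34 and 45 of 96 list counts by over 1.5 times. Among uncalled genes the sign turned for Esrrb (-0.026 without RA replicate 3 and -0.072 without untreated replicate 2, in a range of -0.072 to 0.138), Nanog (0.064 without RA replicate 1, in a range of -0.197 to 0.064) and Tjp1 (-0.002 without untreated replicate 1, in a range of -0.002 to 0.092). In the last 150 bases before the start, any repeat was in 0.59% of promoters of genes higher in RA, 0% of those lower and 0.231% of all tested.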
